A study of Mus musculus with 172 samples.

Results

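The genes described here are the mouse major histocompatibility complex genes (MHC, called H2 in the mouse) and a set of interferon-stimulated genes, measured by RNA sequencing in cerebral cortex and liver of the BXD panel. They were chosen by symbol alone, as listed genes with names such as H2-, Ifit, Ifi with a number, Ifitm through the same Ifi prefix, Gbp, Irf, Isg15, Oas, Mx1, Mx2, Stat2, Tap1, Tap2, B2m, Irgm, Iigp or Rsad2. The rule found 89 of the 16308 genes listed in either tissue, with 71 of 14896 in cortex and 87 of 14107 in liver, and 69 in both. H2-M5 and Ifitm7 were listed in cortex only, and 18 genes in liver only. Mean reads per library reached 10 for 69 of the 71 in cortex and for 80 of the 87 in liver. Of the 89, 86 matched a single locus of assembly NCBIM37 (mm9), and 25 of these lay on chromosome 17. The symbol rule also takes in H2-Ke2, H2-Ke6, Irf2bp1, Irf2bp2 and Irf2bpl, which are neither MHC genes nor interferon regulatory factors. They were counted and kept apart by role.

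Classical MHC class I molecules (H2-K1, H2-D1) pair with B2m and show peptides from inside the cell to cytotoxic T cells. Tap1 and Tap2 carry those peptides into the endoplasmic reticulum. Class II molecules (H2-Aa, H2-Ab1, H2-Eb1) show peptides from ingested proteins and are loaded with the help of H2-DM, which H2-DO restrains. Interferons signal through factors that include Stat2 and Irf9 to DNA motifs called ISRE and GAS, and so raise antiviral proteins (Ifit, Oas, Mx, Rsad2, Isg15) and large GTPases (Gbp, Irgm, Iigp1) that attack pathogen-holding vacuoles. H2 genes are among the most polymorphic of the mouse genome, and the founders of the panel carry different H2 haplotypes.

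The panel consists of inbred lines that each hold a fixed mixture of C57BL/6J and DBA/2J chromosomes. Each of 39 groups of mice gave 4 libraries, 1 per tissue and condition. These were 33 BXD/RwwJ lines (among them the sublines 73b, 48a and 65a), C57BL/6J and DBA/2J sampled in 2 pools each, and both reciprocal F1 crosses (BD and DB). All mice were adult males with no engineered allele. Sleep-deprived mice (SD) were kept awake by gentle handling for 6 h from light onset, and controls (Ctr) slept undisturbed in another room until they were killed at the same hour. A library was made from RNA pooled from several mice of a line, so that a pool, not a mouse, is the replicate, and Ctr and SD pools of a line held different mice. Pools of BXD79, BXD85 and BXD101 held fewer mice. Another 4 BXD/TyJ lines (05, 29, 29t and 32) were sequenced alongside and kept out of the tests.

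Cortex libraries held 18995492 to 28998853 reads in genes and liver libraries 4681101 to 8269401, so low genes are known less precisely in liver. Summed over the 5 neuronal marker genes, cortex Ctr pools had 7668 to 8720 CPM (reads scaled to the library total). The 5 hepatocyte markers summed to 1370 to 2308 CPM in liver Ctr pools. Of these only Ttr was listed in cortex, very unevenly, at 1.82 to 219 CPM in Ctr pools and 2.81 to 380 CPM in SD pools. The source of this Ttr was not tested. No B cell or neutrophil marker of those looked for was listed in cortex. The level of a gene is given below as log2 CPM as the authors deposited it, and a change is SD minus Ctr within a pool on the log2 scale, with its standard error (SE). A gene was called when the p-value adjusted by Benjamini-Hochberg over all genes of the tissue was under 0.05 in limma, with the pool as a replicate block.

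In Ctr cortex, B2m had the highest level per kilobase of exon among the 71 genes, at 6.30 log2 CPM per kb. H2-Ke2 followed at 4.31, Irf2bpl at 4.08 and Irf2bp1 at 4.03, all outside the immune roles, and then Irf2 at 3.76 and Ifi27 at 3.56. Classical class I was lower than B2m, the chain it pairs with, at 2.58 for H2-K1 and 2.49 for H2-D1. In liver the order was led by B2m at 7.50, Ifitm3 at 7.01, Ifitm2 at 6.67, H2-K1 at 6.50, Ifi27 at 6.45 and Iigp1 at 6.34 log2 CPM per kb. Levels of the tissues were scaled separately and were not tested against each other. Reads of several abundant liver genes followed library size weakly. Over Ctr liver libraries, log2 reads of the 16 genes with at least 0.3 reads per exonic base rose by a median of 0.51 per log2 unit of library total (-0.33 to 1.76), against 1.44 for the 61 genes below and 1.31 over all liver genes. The slope was 0.05 for B2m, -0.33 for H2-K1 and 0.38 for Iigp1, and 1.76 for Gbp11 at the upper end. Slopes over all liver genes, taken among those with at least 10 reads on average, ran from -5.61 to 6.83. The libraries are of different lines, so line differences enter the slopes, and the part of depth in them was not tested.

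After sleep deprivation the cortex showed a lower level of most guanylate-binding proteins, of peptide transport and of several class I and class II genes, and a higher level of Irf9, Irf3 and Irf2. Of the 71 genes, 48 were called, 12 up and 36 down. SD moved most of the cortical transcriptome, with 76.3% of all genes called, 36.6% up and 39.6% down, so the count of 48 of 71 is no higher than that of genes at large. The median change of the 71 was -0.12, beside -0.01 over all genes. Without the replicate block, 10 rose and 23 fell, where 68.4% of all genes were called. Pool BXD56, whose Ctr cortex had the highest mean level of the interferon-stimulated genes of any Ctr pool (0.62 above the mean of the pools), was left out in a check added after the data were seen, and 14 then rose and 36 fell.

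**Figure D1:**
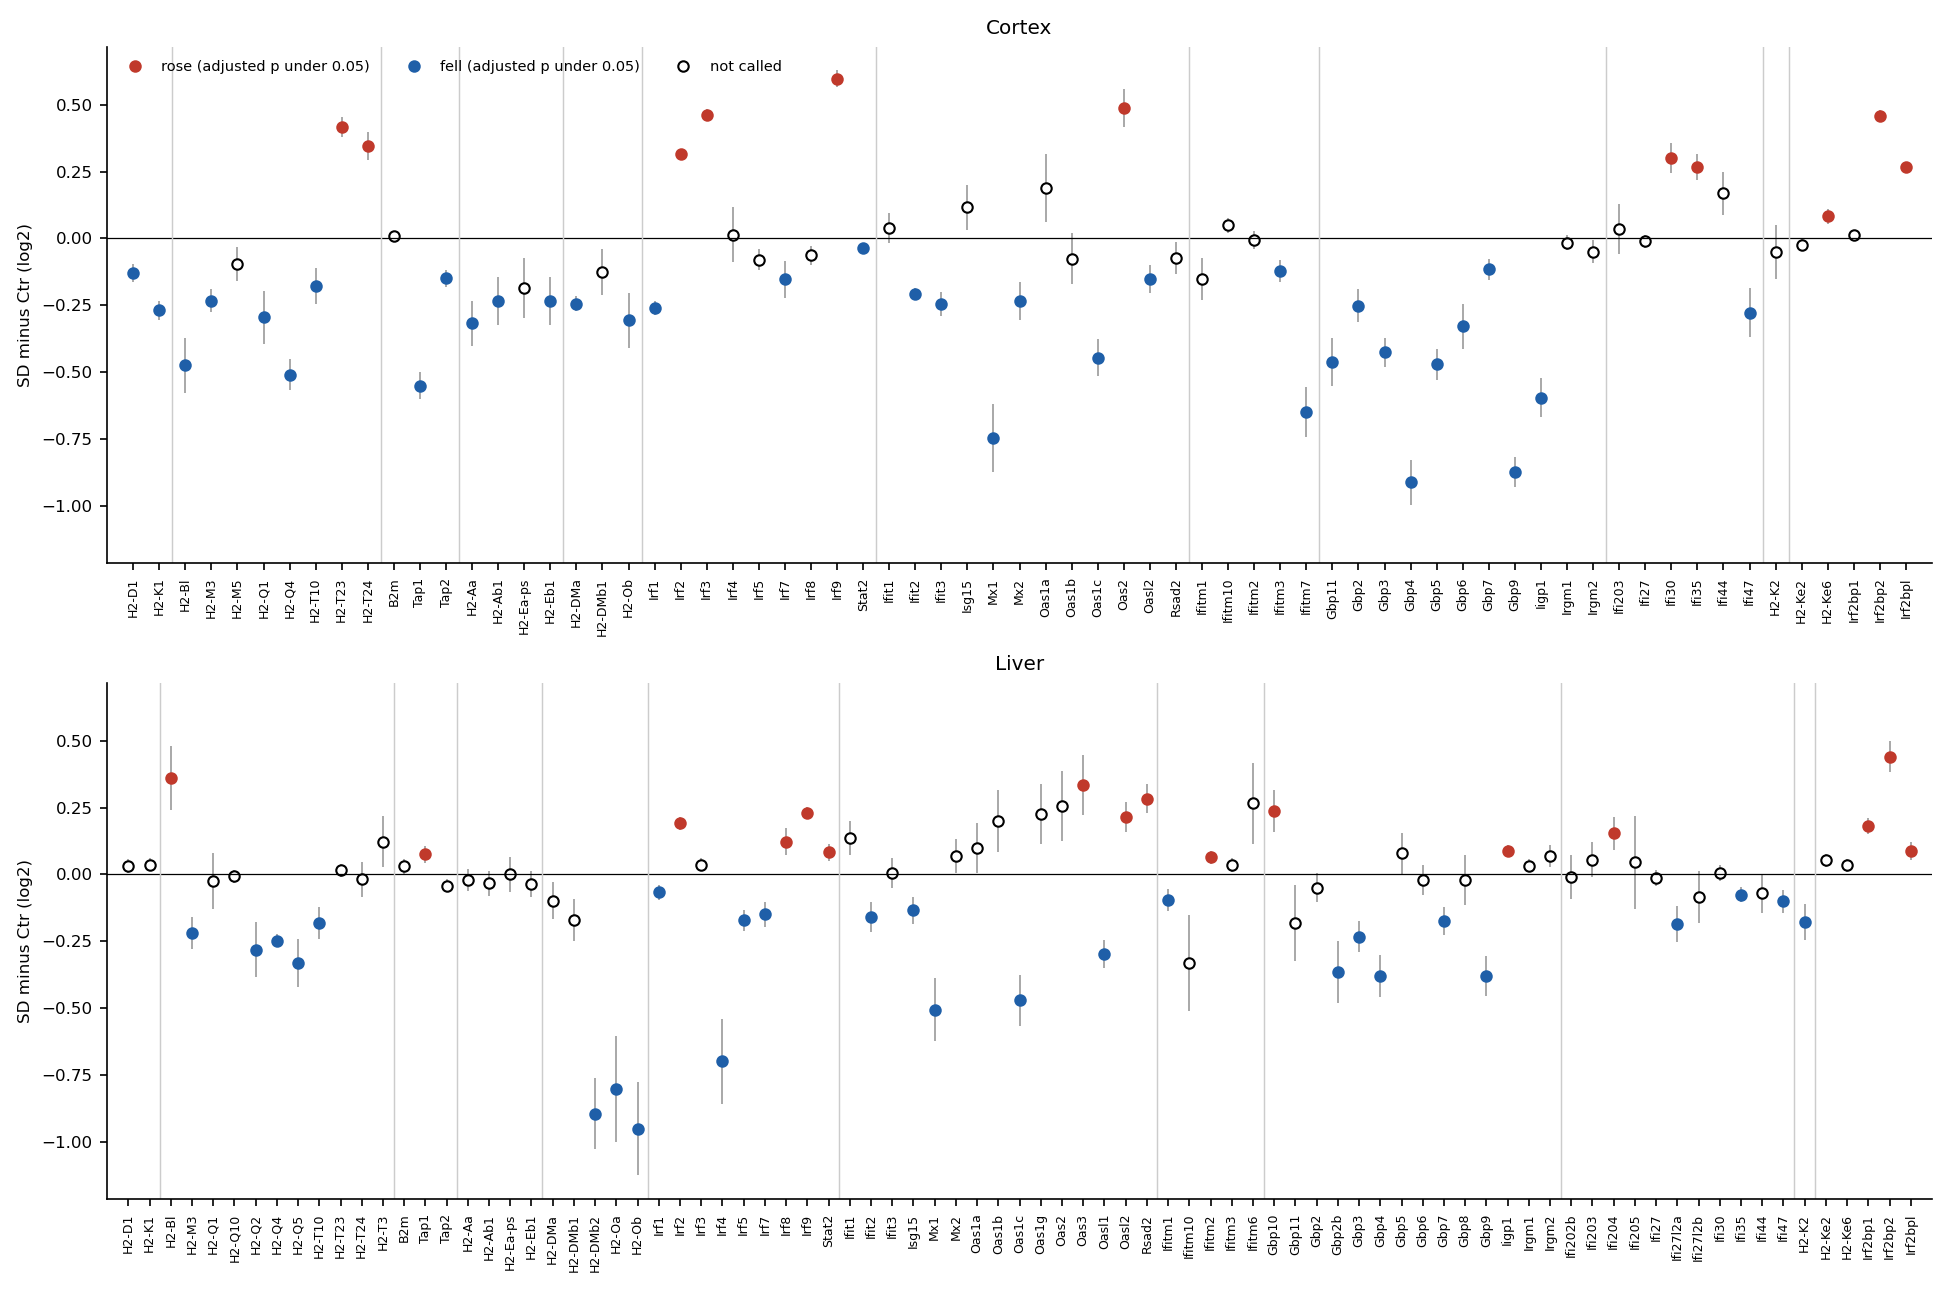
Change after sleep deprivation (log2 SD minus Ctr, mean over 39 pools, bars are SE) of the genes by role, in cortex and liver; the horizontal line marks no change, red points rose, blue points fell and open points were not called. All 8 Gbp genes lie below the line in cortex, and Irf9, Irf3 and Irf2bp2 lie above it.

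The GTPases fell most. Of 11 listed in cortex, 9 fell and none rose, and all 8 Gbp genes were among the 9, while Irgm1 and Irgm2 were not called. Gbp4 (chr5:105544786-105568605, NCBIM37) ranged from 1.88 to 4.45 with a median of 2.60 in Ctr pools and from 0.47 to 3.87 with a median of 1.68 in SD pools. The ranges overlapped, but the level was lower after SD in 37 of 39 pools, by a mean of -0.91 (SE 0.085, a 1.88-fold fall, limma adjusted p = 2.64e-13). Its neighbour Gbp9 (chr5:105507413-105539311) went from a median of 2.19 (0.64 to 3.28) to 1.22 (-0.49 to 2.41). This was a fall in 39 of 39 pools (-0.87, SE 0.056, limma adjusted p = 9.35e-19). Iigp1, an immunity-related GTPase, went from 1.22 (0.20 to 2.63) to 0.55 (-0.34 to 2.05), lower in 37 pools (-0.60, SE 0.074, limma adjusted p = 8.61e-10). The remaining called GTPases were Gbp5 (-0.47), Gbp11 (-0.46), Gbp3 (-0.43), Gbp6 (-0.33), Gbp2 (-0.25) and Gbp7 (-0.12). In Gbp6, 64.4% of the transcript's 100-base stretches were shared with Gbp10, so reads of this pair are uncertain in their gene.

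Promoters of 3 of these Gbp genes, which stand side by side on chromosome 3 and fell together, are shown because the interferon motif can be read in them. The sequences are from RefSeq (GRCm38.p6, 250 bases before to 50 after the start of the gene, read 5′ to 3′ on the gene's strand), and capitals mark matches to the ISRE, searched as GAAA, any 2 bases and GAAA again, on either strand, overlapping matches joined. Gbp3 is chr3:142559794-142560093, Gbp5 is chr3:142496684-142496983 and Gbp7 is chr3:142530086-142530385, all on the plus strand.
Gbp3: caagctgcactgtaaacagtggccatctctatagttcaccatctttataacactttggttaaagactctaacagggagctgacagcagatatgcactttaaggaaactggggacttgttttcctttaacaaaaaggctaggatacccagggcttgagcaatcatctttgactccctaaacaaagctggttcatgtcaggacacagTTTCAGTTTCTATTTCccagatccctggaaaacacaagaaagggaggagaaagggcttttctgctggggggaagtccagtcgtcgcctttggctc
Gbp5: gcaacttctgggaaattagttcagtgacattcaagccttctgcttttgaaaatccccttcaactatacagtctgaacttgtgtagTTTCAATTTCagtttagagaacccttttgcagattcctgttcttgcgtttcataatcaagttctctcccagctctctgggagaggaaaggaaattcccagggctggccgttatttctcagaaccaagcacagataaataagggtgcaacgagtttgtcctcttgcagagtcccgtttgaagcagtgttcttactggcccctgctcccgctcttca
Gbp7: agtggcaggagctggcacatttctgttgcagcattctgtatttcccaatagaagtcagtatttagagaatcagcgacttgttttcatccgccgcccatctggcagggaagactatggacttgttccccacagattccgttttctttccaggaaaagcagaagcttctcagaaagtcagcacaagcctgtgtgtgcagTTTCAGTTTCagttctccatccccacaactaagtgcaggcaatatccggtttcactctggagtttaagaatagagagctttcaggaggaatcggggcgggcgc
For contrast, the same stretch is given for a pair of genes that rose, Irf9 (chr14:55603735-55604034, plus strand) and H2-T23 (chr17:36032652-36032951, minus strand).
Irf9: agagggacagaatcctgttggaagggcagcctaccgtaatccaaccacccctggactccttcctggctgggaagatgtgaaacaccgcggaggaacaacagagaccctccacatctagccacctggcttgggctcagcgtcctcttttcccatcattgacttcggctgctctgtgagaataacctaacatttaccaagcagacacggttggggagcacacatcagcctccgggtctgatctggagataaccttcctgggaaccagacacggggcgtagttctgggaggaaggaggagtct
H2-T23: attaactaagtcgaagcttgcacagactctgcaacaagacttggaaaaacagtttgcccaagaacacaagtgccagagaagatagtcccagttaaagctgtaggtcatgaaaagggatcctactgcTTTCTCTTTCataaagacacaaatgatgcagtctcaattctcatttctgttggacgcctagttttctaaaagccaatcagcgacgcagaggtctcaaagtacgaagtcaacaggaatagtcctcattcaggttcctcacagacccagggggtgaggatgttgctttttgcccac
Irf9 had no match in this window or in that of its other start, and H2-T23 had 1. Gbp3 has another start whose window held no match. The first base of the match stood 45 and 39 bases before the start in Gbp3, 165 in Gbp5, 53 in Gbp7 and 124 in H2-T23. A promoter was found for 62 of the 89 genes. The ISRE letters occurred in 23 of the 62 (37.1%) against 3.99% of all 27025 genes with a promoter, and the GAS letters TTCNNNGAA in 15 (24.2%) against 9.55%, a gene being counted when any of its promoter windows held the letters. Per window, the shares of all 32851 promoters were 3.44% and 8.30%. Among cortex genes with a promoter, the ISRE letters were in 8 of 23 that fell, 2 of 9 that rose and 9 of 18 not called. In liver the numbers were 5 of 20, 5 of 12 and 13 of 28.

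Class I genes moved in both directions in cortex. Tap1 (chr17:34324498-34334170), which forms the peptide transporter with Tap2, was 1.18 to 2.58 with a median of 1.88 in Ctr and 0.70 to 2.35 with a median of 1.44 in SD. It was lower in 38 of 39 pools (-0.55, SE 0.051, limma adjusted p = 2.48e-13), and Tap2 fell by 0.15. H2-K1 fell by 0.27 and H2-D1 by 0.13, and B2m was not called. Of 8 nonclassical class I genes 5 fell and 2 rose. Among the 8, H2-Bl and H2-T10 are annotated in the reference as polymorphic pseudogenes. H2-Q4 went from 2.23 (1.23 to 3.02) to 1.67 (0.69 to 3.26), lower in 35 pools (-0.51, SE 0.057, limma adjusted p = 5.32e-11). H2-T23, which encodes Qa-1, the ligand of the inhibitory receptor NKG2A, went the other way from 3.60 (2.41 to 4.02) to 4.10 (2.60 to 4.42) and was higher in 37 pools (0.42, SE 0.038, limma adjusted p = 1.1e-13). Its neighbour H2-T24 rose from 0.98 (-0.05 to 2.61) to 1.42 (0.13 to 2.88) in 33 pools (0.35, SE 0.054, limma adjusted p = 1.83e-07). The class II chains H2-Aa (-0.32), H2-Ab1 (-0.23) and H2-Eb1 (-0.23) fell, and so did H2-DMa (-0.24) and H2-Ob (-0.31), which serve their loading. Of 10 microglial markers, all listed in cortex, 4 rose and 4 fell, and their summed level had a median of 416 CPM in Ctr (337 to 519) and 407 CPM in SD (342 to 500). The part of microglial content in the class II values was not tested. In bulk tissue, fewer cells of a type and less RNA per cell cannot be told apart.

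Among 12 antiviral effectors listed in cortex 6 fell and 1 rose, and 2 of 5 Ifitm genes fell. Ifitm7, of a family that blocks virus entry, went from -0.46 (-1.67 to 0.31) to -1.16 (-2.92 to -0.11), lower in 34 pools (-0.65, SE 0.093, limma adjusted p = 2.6e-08). It was read 13.2 times per library on average. Mx1 (-0.75) and Oas1c (-0.45) fell as well, Mx1 at under 10 reads per library. Oas2, which makes the 2-5A signal for RNA decay, rose from -0.29 (-1.42 to 1.32) to 0.24 (-1.12 to 1.91) in 33 pools (0.49, SE 0.072, limma adjusted p = 4.98e-08). Ifit2 (-0.21, lower in 36 pools), Ifit3 (-0.24, lower in 33), Mx2 (-0.23) and Oasl2 (-0.15, limma adjusted p = 0.0842 without the replicate block) fell too, whereas Isg15, Rsad2 and Ifit1 were not called in cortex.

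The largest rise among the 71 genes in cortex was that of Irf9, an interferon signal gene. Of 11 interferon signal genes listed in cortex 4 rose and 4 fell. This was 36.4% in each direction, close to the 36.6% up and 39.6% down over all genes. Irf9 (chr14:56222408-56228867), the DNA-binding partner of Stat2, was 3.25 to 3.87 with a median of 3.58 in Ctr and 3.81 to 4.44 with a median of 4.16 in SD. The groups barely overlapped, and 38 of 39 pools rose (0.60, SE 0.031, a 1.51-fold rise, limma adjusted p = 2.3e-22). Irf3 (chr7:52253018-52258218), which switches on interferon genes after nucleic acid sensing, went from 4.04 (3.54 to 4.46) to 4.48 (3.99 to 4.76), higher in 38 pools (0.46, SE 0.024, limma adjusted p = 2.55e-22). Irf2, a repressor of interferon target genes, rose by 0.31 in 39 of 39 pools, whereas its counterpart Irf1 fell by 0.26, lower in 37. Irf7 (-0.15) fell, and Stat2 (-0.04) was called down with a change close to 0. Of the genes outside the immune roles, Irf2bp2 rose from 5.42 (5.12 to 5.75) to 5.87 (5.70 to 6.09) in all 39 pools (0.46, SE 0.024, limma adjusted p = 4.32e-22), and Irf2bpl (0.27) and H2-Ke6 (0.08) rose too.

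**Figure D2:**
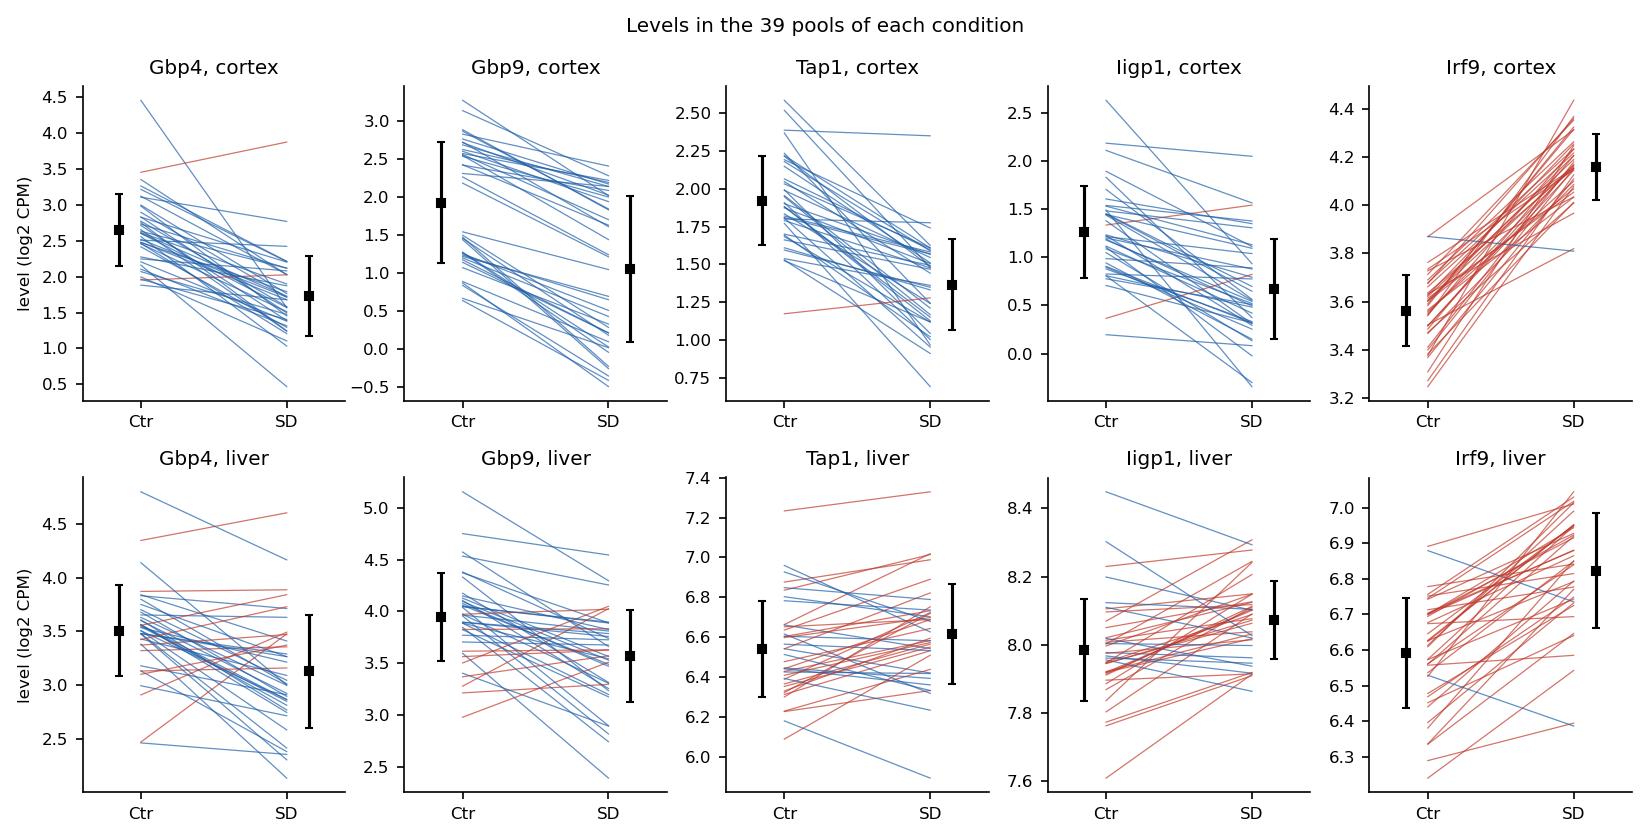
Levels (log2 CPM) of Gbp4, Gbp9, Tap1, Iigp1 and Irf9 in the 39 pools under Ctr and SD, cortex above and liver below; each line is a pool, red where the level rose and blue where it fell, and squares with bars are mean ± standard deviation. Nearly every line falls for the first 4 genes in cortex, directions are mixed in liver, and Irf9 rises in 38 pools in cortex and 37 in liver.

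In liver, 3 of 5 class II loading genes and several GTPases and antiviral genes fell, and Irf9, Irf2 and Rsad2 rose. Of 87 genes 44 were called, 17 up and 27 down, where 53.9% of all genes were called, 26.0% up and 27.9% down. The median change was -0.01, beside -0.00 over all genes. Without the replicate block, 20 were called, 8 up and 12 down, against 44.2% of all genes, so most of the liver calls rest on the pairing of pools by line. Pool BXD95 had the lowest SD liver mean of the interferon-stimulated genes (-0.82 from the mean of the pools). Without it, in a check added after the data were seen, 19 rose and 24 fell.

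Among genes with at least 10 reads per library, the largest liver fall was that of H2-DMb2, a chain of the H2-DM peptide loader, from 1.43 (-0.49 to 2.84) to 0.30 (-1.77 to 3.09). It was lower in 34 of 39 pools (-0.89, SE 0.134, a 1.86-fold fall, limma adjusted p = 2.15e-07). The H2-DO chains H2-Ob (-0.95, lower in 33 pools) and H2-Oa (-0.80, lower in 30), and Irf4 (-0.70, lower in 32), a factor of B and plasma cells, fell too. These 3 had under 10 reads per library and were singled out after their values were seen. B cell markers moved with them. All 10 of the B cell markers fell in liver, with a median change of -1.13, and their summed level was lower after SD in 39 of 39 pools, at 10.4 to 41.1 CPM in Ctr (median 21.7) and 4.77 to 21.6 in SD (median 9.70). The part of B cell content in the falls of H2-Ob, H2-Oa, H2-DMb2 and Irf4 was not tested. The other loading genes, H2-DMa (-0.10, 80.7 reads per library) and H2-DMb1 (-0.17, 67.6 reads), were not called in liver. The class II chains themselves (H2-Aa, H2-Ab1, H2-Eb1) were not called in liver, and none of 6 dendritic cell markers was called. Of 9 T and NK cell markers 4 fell, and of 9 macrophage and Kupffer cell markers 3 rose and 2 fell.

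Among liver GTPases 5 of 14 fell and 2 rose. Gbp9 went from 3.96 (2.98 to 5.15) to 3.63 (2.39 to 4.54), lower in 30 pools (-0.38, SE 0.075, limma adjusted p = 3.25e-05), and Gbp4 from 3.54 (2.46 to 4.80) to 3.05 (2.14 to 4.60), lower in 29 (-0.38, SE 0.079, limma adjusted p = 7.21e-05). The change of Gbp2b (-0.36) was called with the block (adjusted p = 0.0077 in limma) and not without it (0.208). The rise of Gbp10 (0.24, 28 pools, limma adjusted p = 0.0092), which shares 65.0% of its 100-base stretches with Gbp6, was likewise lost without the block (0.133). Iigp1 ran from 7.61 to 8.45 in Ctr and rose by 0.09 (SE 0.022), a small change in a gene whose reads followed library size weakly, as given above.

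Of 15 antiviral effectors in liver 5 fell and 3 rose. Mx1 went from 2.29 (1.41 to 3.53) to 1.85 (0.10 to 3.32), lower in 29 pools (-0.51, SE 0.117, limma adjusted p = 0.000272), and Oas1c from 2.58 (1.85 to 3.21) to 2.14 (0.26 to 3.13), lower in 31 (-0.47, SE 0.094, limma adjusted p = 3.5e-05). Rsad2, the antiviral enzyme viperin, rose from 5.41 (4.58 to 6.27) to 5.64 (4.61 to 6.55) in 33 pools (0.28, SE 0.053, limma adjusted p = 1.37e-05). Oas3 rose by 0.33 in 25 of 39 pools (SE 0.111, limma adjusted p = 0.00974), which did not hold without the block (0.197) or in the 33 lines alone (0.0518). The called antiviral genes thus had no common direction in liver. Over all liver genes, 26.0% were called up and 27.9% down, so a mixed direction is not particular to these genes.

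Interferon signal genes in liver were called in 9 of 11 cases, 5 up and 4 down. Irf9 rose again, from 6.61 (6.24 to 6.89) to 6.85 (6.39 to 7.04) in 37 pools (0.23, SE 0.024, limma adjusted p = 2.7e-11), and Irf2 rose by 0.19 in 34 pools. Irf3 changed by 0.04 and was not called. Irf2bp2 went from 6.06 (5.57 to 6.73) to 6.52 (5.95 to 7.04), higher in 35 pools (0.44, SE 0.059, limma adjusted p = 1.91e-08). Of 11 nonclassical class I genes 5 fell and 1 rose. That 1 was H2-Bl, which went from 0.82 (-1.71 to 1.83) to 1.12 (-0.62 to 2.45) in 28 pools (0.36, SE 0.120, limma adjusted p = 0.0102) at 12.5 reads per library. H2-K1, H2-D1 and B2m were not called in liver, where the reads of H2-K1 and B2m did not follow library size. Of the other Ifi genes, 2 of 6 rose and 1 fell in cortex, and 1 of 11 rose and 3 fell in liver.

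The change was then compared between the tissues, as the liver change minus the cortex change of each pool. Of 69 genes listed in both, 38 differed, 25 with the more positive change in liver and 13 with the more positive change in cortex, where 57.6% of all 12695 genes differed, 28.0% and 29.6% in these directions. Without the block, 12 and 9 were called. Genes that were called down in both tissues were 14 (Gbp3, Gbp4, Gbp7, Gbp9, H2-M3, H2-Ob, H2-Q4, H2-T10, Ifi47, Ifit2, Irf1, Irf7, Mx1 and Oas1c), and those called up in both were Irf2, Irf2bp2, Irf2bpl and Irf9. H2-Bl, Iigp1, Oasl2, Stat2 and Tap1 were among those called down in cortex and up in liver, and Ifi35 the reverse. Of all genes, 76.3% were called in cortex and 53.9% in liver. The share of all genes with such overlaps was not counted, so no shared response of these genes is read from the lists.

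For Tap1, the liver change was 0.08 (23 pools up) and the cortex change -0.55 (38 down), a difference of 0.63 (SE 0.061, limma adjusted p = 6.6e-12). Iigp1 differed by 0.68 (SE 0.074) and H2-Bl by 0.83 (SE 0.164). The difference of H2-Bl was not called without the block (0.104), and in cortex its reads were near 0 in some pools. In the other direction, Irf3 rose in cortex and not in liver, a difference of -0.42 (SE 0.033, limma adjusted p = 7.0e-15), and H2-T23 differed by -0.40 (SE 0.052). Irf4 (-0.71) and H2-Ob (-0.65) differed through the liver falls described above beside the B cell markers. Of 11 GTPases 7 were more positive in liver.

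**Figure D3:**
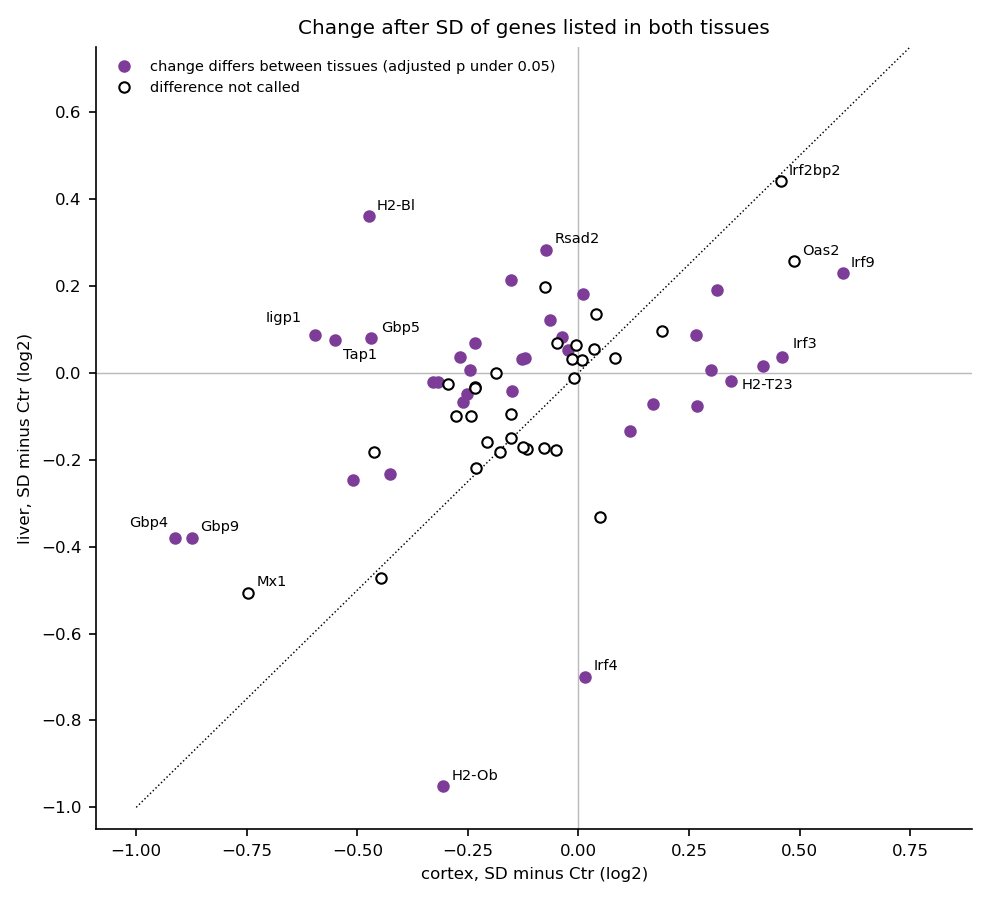
Change after SD in cortex (horizontal, log2) against the change in liver (vertical, log2) for genes listed in both tissues; filled points are genes whose change differed between the tissues, and the dotted line marks equal change. Tap1, Iigp1 and H2-Bl lie left of 0 and above it, and Irf3 and H2-T23 lie right of 0 near the horizontal line.

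The level of these genes also varied between lines. Over the 33 lines, with Ctr and SD libraries as the 2 values of a line, 56 of 71 genes differed between lines in cortex and 80 of 87 in liver, where 50.4% and 59.0% of all genes differed. The standard deviation between line means had a median of 0.34 log2 units over these genes and 0.11 over all genes in cortex, and 0.40 and 0.19 in liver. It was above 1 for 6 of 71 genes in cortex and 8 of 87 in liver, against 1.05% and 2.91% of all genes. In cortex, the largest spreads at 10 or more reads were those of H2-Bl (1.74), H2-K2 (1.73), Ifi203 (1.39), H2-K1 (1.22), H2-DMb1 (1.17), Gbp9 (0.88), H2-Aa (0.73) and H2-Ob (0.68). In liver, they were those of Ifi202b (3.51), H2-Ea-ps (3.48), Gbp11 (1.33), H2-DMb2 (1.04), Gbp2b (1.02), H2-T10 (1.00), H2-Q1 (0.97) and Ifi204 (0.92). Many lines had no reads of Ifi202b and H2-Ea-ps in liver, and some pools had none of H2-Bl or H2-K2 in cortex. The sizes of the spreads of these genes thus depend on the prior count of the deposited values.

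The parental strains were compared next. With 4 libraries per strain and tissue (both pools under both conditions), 26 of 71 genes differed between DBA/2J and C57BL/6J in cortex (11 higher in DBA/2J, 15 higher in C57BL/6J), where 25.5% of all genes did (11.6% and 13.9%). In liver 27 of 87 differed (15 and 12), where 17.9% did (8.42% and 9.47%). Reads of all strains were aligned to mm9, the C57BL/6J genome, and how many reads of DBA/2J alleles were lost in this was not tested.

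H2-K1 (chr17:34132962-34137278), the classical class I gene at the end of the H2 region, was 4.55 and 4.25 in the first C57BL/6J pool (Ctr, SD) and 4.56 and 4.26 in the second in cortex. DBA/2J gave 1.71, 1.45, 1.97 and 2.16, and the F1 pools 3.45 to 3.78. The strains did not overlap and differed by -2.58 (DBA/2J minus C57BL/6J, SE 0.13, 5.98-fold, limma adjusted p = 1.39e-09). In liver the strains were 7.94 to 8.15 and 7.24 to 7.57, a difference of -0.67 (SE 0.08), beside the weak relation of its liver reads to library size. H2-K2 (chr17:34111731-34115733) had the lower cortex level in DBA/2J (-3.84, SE 0.43, limma adjusted p = 8.2e-06) and the higher liver level (0.84, SE 0.24, limma adjusted p = 0.0254). The direction of its strain difference thus depended on the tissue. H2-K2 is annotated in the reference as a pseudogene, and 4 Ctr pools and 1 SD pool of cortex had no read of it. In 8 lines its cortex means were -4.01 to -1.60 with a median of -3.62, where no reads gave -4.52. The size of its cortex strain difference therefore depends on the prior count of the deposited values. H2-Bl (chr17:36201920-36221168) had 1 read in the 4 DBA/2J cortex libraries and 107 in the 4 of C57BL/6J, a depth-corrected ratio of 100 (95% counting interval 17.6 to 3997). In liver DBA/2J stood at 0.98 to 1.83 and C57BL/6J at 0.09 to 0.85, and the difference (0.93) was not called. H2-DMb1 (chr17:34290017-34297168) was lower in DBA/2J cortex (-2.47, SE 0.39), and H2-Eb1 too (-1.28, SE 0.25, limma adjusted p = 0.0015), which missed the threshold in Ctr libraries alone (0.0598).

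H2-Ea-ps (chr17:34478897-34481589), annotated in the reference as a pseudogene of the class II E alpha chain, showed the reverse pattern. C57BL/6J gave 0 reads in 4 liver libraries and DBA/2J 964, at least 367-fold higher, and 0 against 76 reads in cortex, at least 27.0-fold higher (floors of 3 reads over the strain's libraries, covering counting error only). Liver levels in the F1 pools were 4.32 to 5.10, near the 4.57 to 5.71 of DBA/2J. In both tissues and both conditions, 27 of the 39 pools had no read of it. H2-T3 (chr17:36322517-36327232), which encodes the thymus leukemia antigen, had 0 reads in C57BL/6J liver and 120 in DBA/2J, at least 45.7-fold higher. H2-T10 (chr17:36252821-36258410) was 2.54 to 2.91 in C57BL/6J and 5.05 to 5.42 in DBA/2J liver (2.44, SE 0.15, limma adjusted p = 6.36e-08). The H2-DO chains H2-Ob (-2.32) and H2-Oa (-1.96) were lower in DBA/2J liver at under 10 reads per library, and both calls were lost when a pool of C57BL/6J was left out.

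The 33 lines fell on either side of the parental midpoint in these genes, which is described here without a test, since the sides are read from the levels themselves. For H2-K1 in cortex, 8 lines had means between 1.56 and 2.41 and the other 25 between 3.88 and 5.21, with no line in between. The same 8 lines (44, 50, 56, 70, 73, its subline 73b, 79 and 87) stood on the DBA/2J side for 10 pairs of gene and tissue from 9 genes: H2-Bl, H2-DMb1, H2-Ea-ps, H2-K1, H2-K2, H2-T23 and H2-T24 in cortex, and H2-Ea-ps, H2-T10 and H2-T3 in liver. H2-Ea-ps in liver was 4.67 to 5.65 in the 8 and without reads in the other 25. H2-T3 was 1.85 to 2.58 in the 8 and at most -2.22 in the rest, and H2-Bl in cortex -4.52 to -3.74 against -0.73 to 0.31. H2-T23 and H2-T24, which stand close together, had opposite signs, with H2-T23 lower on the DBA/2J side (2.51 to 3.04 against 3.77 to 4.22) and H2-T24 higher (2.16 to 2.74 against 0.45 to 1.75). In the text, sides were read only where the parents were called different by at least 1 log2 unit, and other H2 genes that met this divided the lines differently. For H2-Aa in cortex, line 61 replaced line 56 among the 8, and for H2-T24 in liver, line 98 replaced line 70. The DBA/2J side held 7 lines for H2-Eb1 and 9 for H2-Ab1 in cortex. In liver it held 9 for H2-DMb2, H2-Q2 and H2-Ob, 14 for H2-Q1 and 15 for H2-Oa. Of the TyJ lines, 05 and 32 had H2-Ea-ps levels of 4.91 to 5.65 in liver, and 29 and 29t had no reads of it. H2 genotypes of the lines were not used here.

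**Figure D4:**
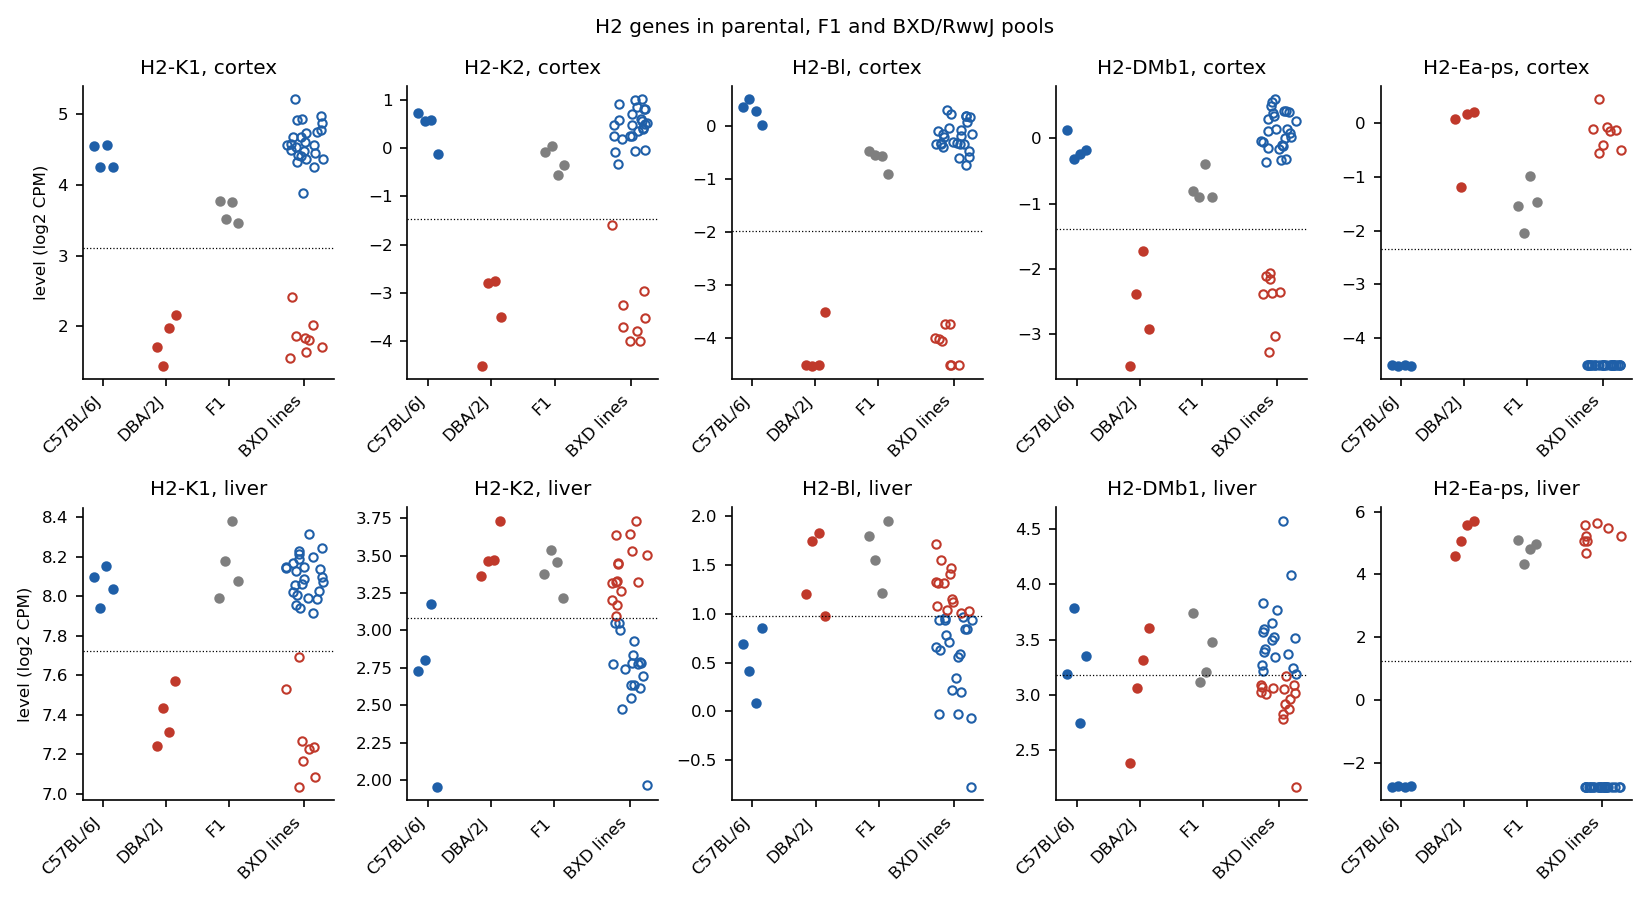
Level (log2 CPM) of 5 H2 genes in cortex and liver; filled points are single libraries of the parental and F1 pools, open circles are means over Ctr and SD of the 33 BXD lines, red on the DBA/2J side and blue on the C57BL/6J side of the dotted midpoint between the parents. In cortex 8 red lines stand apart from 25 blue ones for H2-K1, and in liver for H2-Ea-ps the 25 blue lines lie at the level of no reads. In the liver panels of H2-K1, H2-K2, H2-Bl and H2-DMb1 the parents differed by less than 1 log2 unit, and the colours there are not read as sides.

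Outside the H2 region, the interferon-inducible Ifi200 cluster on chromosome 1 divided the lines in another way. Ifi202b (chr1:175892700-175912975), an inhibitor of the DNA sensor Aim2, had 2 reads in C57BL/6J liver and 538 in DBA/2J, a depth-corrected ratio of 308 (95% counting interval 84.7 to 2546). The F1 pools lay between the parents at 2.53 to 3.61. Ifi205 (chr1:175942129-175961886) had 106 reads in C57BL/6J liver and 0 in DBA/2J, at least 30.9-fold lower there. It shares 41.5% of its 100-base stretches with its neighbour Mnda, so part of its reads is uncertain. Ifi203 (chr1:175850538-175872803) was -0.19 to 0.72 in C57BL/6J and -2.46 to -1.03 in DBA/2J cortex (-2.13, SE 0.31, limma adjusted p = 0.000118). The same 15 lines stood on the DBA/2J side for Ifi202b and Ifi205 in liver and Ifi203 in cortex, and 14 of them for Ifi203 and Ifi204 in liver. Ifi202b was 3.32 to 5.27 in the 15 and at most -2.28 in the other 18.

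In the Gbp cluster on chromosome 5, Gbp9 and Gbp11 showed strain differences that depended on the tissue. Gbp4 and Gbp6 of the same cluster were not called between the strains in either tissue. Gbp9 was lower in DBA/2J cortex (-0.25 to 1.44 against 1.84 to 2.89 in C57BL/6J, -1.85, SE 0.17, limma adjusted p = 8.72e-07) and was not called in liver (0.03, SE 0.16). Gbp11 (chr5:105755499-105772948) was higher in DBA/2J liver (7.24 to 7.49 against 4.69 to 5.58, 2.24, SE 0.13, limma adjusted p = 5.35e-08) and was not called in cortex (0.23, SE 0.27). The same 17 lines stood on the DBA/2J side for Gbp9 in cortex, at 0.12 to 1.30 against 2.00 to 2.71, and for Gbp11 in liver, at 6.91 to 7.83 against 3.58 to 5.99. F1 liver levels of Gbp11 (6.99 to 7.22) lay near DBA/2J, and F1 cortex levels of Gbp9 (1.22 to 2.27) between the strains. Gbp9 fell after SD on both sides of this division, since it fell in all 39 pools.

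**Figure D5:**
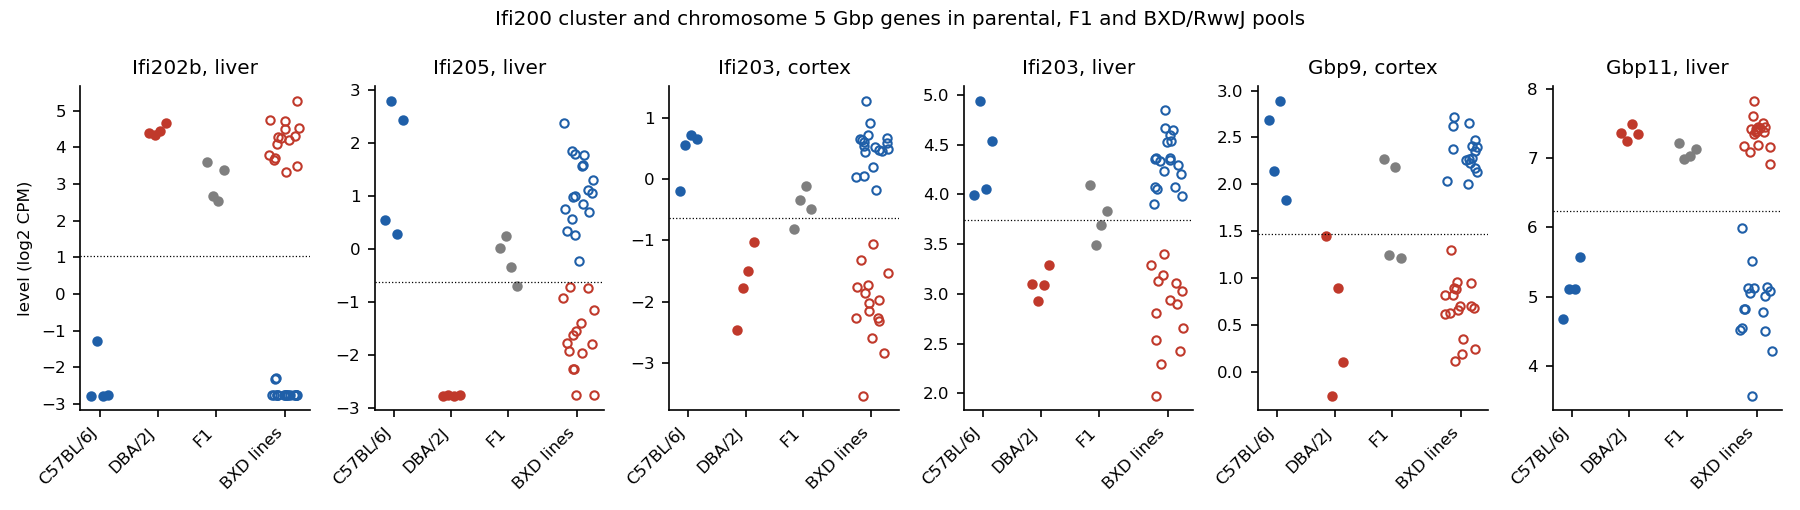
Level (log2 CPM) of Ifi200 and Gbp genes; filled points are single libraries of the parental and F1 pools, and open circles are means of the 33 BXD lines, red on the DBA/2J side and blue on the C57BL/6J side of the dotted parental midpoint. For Ifi202b in liver, 15 red lines lie at 3.32 to 5.27 and 18 blue lines near the level of no reads, and for Gbp11 in liver 17 red lines lie above 16 blue lines.

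Other genes of the pathways moved as follows. Beside their counts, 76.3% of all genes were called in cortex (36.6% up, 39.6% down) and 53.9% in liver (26.0% up, 27.9% down). Of 11 interferon receptor and signal genes in cortex 4 rose and 3 fell, led by Jak2 (0.48) and the feedback inhibitors Socs1 (0.40) and Usp18 (0.27), with Ifnar2 at -0.22. In liver 4 rose and 1 fell. Of 13 nucleic acid sensing genes listed in cortex 3 rose and 7 fell, with Tlr7 at 0.52, Eif2ak2 at -0.34, Ticam1 at 0.27 and Ifih1 at -0.26, and of 14 in liver 6 rose and 5 fell, with Ikbke at -0.72 and Mb21d1 at 0.67. Further interferon-stimulated genes fell in 9 and rose in 1 of 21 cases in cortex (median -0.07), among them the immunoproteasome subunits Psmb9 (-0.57) and Psmb8 (-0.28), which cut peptides for class I. Their summed level was lower after SD in 38 of 39 pools. In liver 6 rose and 8 fell of 24, with the chemokines Cxcl10 at 0.58 and Ccl5 at -0.41. Of 14 antigen presentation genes listed in cortex 4 rose and 6 fell: the chaperones Calr (0.83) and Pdia3 (0.68) rose, and the class II regulator Rfx5 (-0.39) and the invariant chain Cd74 (-0.37) fell. The summed level of the 14 was higher after SD in 39 of 39 pools (median 1128 CPM in Ctr and 1573 in SD), but their median change was -0.01. The sum is weighted to the most abundant genes. Canx, Calr and Pdia3 had the highest mean Ctr levels (8.56, 8.25 and 7.49 log2 CPM), and all of them rose. In liver 5 of 15 rose and 5 fell, and the regulators Ciita (-0.49), Nlrc5 (-0.40) and Rfx5 (-0.39) were the largest falls.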

How the data were processed

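Poly(A) RNA of cortex and liver was sequenced with stranded single-end libraries. The authors aligned the reads to mm9, counted them per RefSeq gene with strand and scaled them with TMM factors, and deposited log2 CPM with a small prior count, in 4 tables (1 per tissue and condition). Tool versions were not used here. All 172 columns were mapped to samples by line, tissue and condition. The scaling factors had a geometric mean of 1.0005 over cortex and 1.0000 over liver, and of 0.9918 to 1.0092 within a table, so that the conditions of a tissue had been scaled together. Whole reads were recovered from the steps of the values (100.0% of values within 0.02 of a whole number) and used for depths, floors and counting intervals.

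Tests used limma 3.58.1 in R 4.3.3 on the log2 CPM with a variance trend over all genes of a tissue. They had Benjamini-Hochberg adjustment and a threshold of 0.05. The fits of SD against Ctr and of the parents were tried on simulated data, and the other tests were not. SD against Ctr had the pool as a replicate block. Ctr and SD pools of a line share inbred genotype but not mice. Their deviations from the condition means correlated in every line (lowest r 0.30 in cortex and 0.17 in liver, medians 0.61 and 0.48, against -0.02 and -0.02 between different lines), and 37 of 39 pools in each tissue matched their own line best. Line differences were an F test over 33 lines given condition, and parents were compared given condition. P-values measure the spread between pools. The 4 BXD/TyJ lines entered only as an alternative. Genes given in full were, per tissue, the 6 largest called rises and falls with at least 10 reads, the 8 largest line spreads and parental differences, and the 4 largest differences between tissues in each direction. Results of some genes that enter the counts are not reported here. Members, roles and gene lists were chosen with earlier results of these data known. Alternatives were the fit without block, voom on recovered reads, median-centred libraries, no variance trend, a minimum of 10 reads, a prior of 5 reads and other sets of pools. Gene positions are those of NCBIM37, and promoters those of RefSeq GRCm38.p6.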

Additional observations from a re-analysis of the deposited data

Results flagged for a closer look

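The change after SD differed between liver and cortex, tested within pools, in the genes named for it above. The difference (liver minus cortex) was -0.71 for Irf4 (limma adjusted p = 0.00214), -0.65 for H2-Ob (0.00269), -0.42 for Irf3 (7.0e-15) and -0.40 for H2-T23 (1.1e-08). It was 0.83 for H2-Bl (2.8e-05), 0.68 for Iigp1 (1.4e-10) and 0.63 for Tap1 (6.6e-12).

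The difference between DBA/2J and C57BL/6J was set against the tissue in a test added after the data were seen (8 pairs of cortex and liver libraries, limma), in which 18 of 69 genes and 14.9% of all genes differed. Among the genes named above, the parental difference was more positive in liver than in cortex by 5.49 for H2-Bl (adjusted p = 6.7e-05), 4.68 for H2-K2 (3.7e-05), 2.29 for H2-DMb1 (0.00177), 2.00 for Gbp11 (0.000995), 1.91 for H2-K1 (2.3e-06), 1.88 for Gbp9 (0.000494), 1.80 for H2-T10 (0.00164) and 1.35 for H2-Eb1 (0.0214). DBA/2J had 1 read of H2-Bl in cortex, so the size of that difference depends on the prior count of the deposited values. Cortex reads of H2-K2 were few on the DBA/2J side (median line mean -3.62, where no reads gave -4.52). The size of the H2-K2 difference depends on the prior count too. For H2-Ea-ps the fitted value was 3.65 (0.00167), but C57BL/6J had 0 reads in both tissues, so each parental difference is a lower bound, this value and its p depend on the prior count, and no difference between tissues can be read from them.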

How the results depend on the processing

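Only the genes given in full were followed through the alternatives, and these were picked as the largest changes, spreads and differences of the same data. Of their 602 values under an alternative, 590 kept their direction and their side of the threshold, 12 kept the direction and missed the threshold, and 0 reversed. Smaller changes given above were not among these values, so their stability cannot be read from this count. Of 169 counts of called genes, 156 stayed within 1.5 times the reported count. The replicate block mattered most. Without it, 23 genes fell in cortex, 20 were called in liver (8 up, 12 down), and 21 differed between tissues (12 more positive in liver). Among the values of genes given in full, the calls lost without the block were Gbp2b (0.208), Oas3 (0.197) and Gbp10 (0.133) in liver and the tissue difference of H2-Bl (0.104). Calls with smaller changes were lost too, among them Oasl2 in cortex, and they are not listed here. In Ctr libraries alone, 6 genes were higher in DBA/2J cortex, and 16 differed in liver, 6 of them higher in C57BL/6J. Leaving out 1 parental pool gave 19 to 24 called in cortex (6 to 9 higher in DBA/2J, 12 to 16 in C57BL/6J) and 21 to 24 in liver (9 to 14 and 7 to 14). The pools that moved a count past 1.5 times were the first and second of DBA/2J (6 and 7 higher in DBA/2J cortex; without the second, 9 higher in DBA/2J liver) and the second of C57BL/6J (7 higher in C57BL/6J liver). H2-Ob and H2-Oa in liver were lost in Ctr alone (0.113, 0.0857) and without the first C57BL/6J pool (0.086, 0.141). The causes were not tested. Depth limits genes under 10 reads, more so in liver, and the weak relation of reads to library size limits H2-K1, B2m and Iigp1 there.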
